A study of Homo sapiens with 6 samples.

Results

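The chaperones and disulfide isomerases described here are 10 genes of the folding machinery of the endoplasmic reticulum: HSPA5, HYOU1, DNAJB9, SDF2L1, HSP90B1, CALR, CLGN, PDIA4, PDIA6 and CRELD2. They were chosen by symbol, with their difference between the 2 groups already known, from the 58174 Ensembl genes of the deposited tables, of which 29280 were above 0 in at least 1 library. All 10 were measured and entered both statistical fits used below. RNA came from LN-229, an established human glioblastoma line, and was enriched for nuclei, depleted of ribosomal RNA and sequenced as total RNA. The labels call 3 libraries control-NC and the other 3 sh-JMJD1C, which usually stands for a short hairpin RNA against the transcript of JMJD1C, a JmjC-domain protein. Time after treatment, the vector, the number of hairpins and any selection of clones are not stated in the labels. Nor do they tie the libraries to cultures of their own, so p-values reflect only how these libraries spread.

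Secretory and membrane proteins enter the endoplasmic reticulum unfolded. HSPA5, also called BiP, is an HSP70 chaperone that holds and releases them in a cycle driven by ATP, J proteins load it, and HYOU1 exchanges its nucleotide. HSP90B1 takes over later folding steps, calreticulin and its relatives bind glycoproteins through their sugars, and protein disulfide isomerases make and rearrange disulfide bonds. When unfolded proteins accumulate, the sensors ATF6, IRE1 and PERK start the unfolded protein response, in which ATF6 and XBP1 bind promoters of chaperone genes. HSPA5 is known to be abundant in glioblastoma.

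Promoter sequences are printed before the values, because several of these genes carry elements known from this response. RefSeq gave 12 windows of the 10 genes on GRCh38.p14, each from 250 bases before to 50 bases after an annotated start, with 2 windows for PDIA4 and for PDIA6. The search covered 4 motifs on both strands: the endoplasmic reticulum stress element ERSE (CCAAT, any 9 bases, then CCACG), ERSE-II (ATTGG, any 1 base, then CCACG), the core of the unfolded protein response element, UPRE (TGACGTG), and the CCAAT box (CCAAT). Both ERSE forms contain a CCAAT box. ERSE was found in 5 of the 10 genes, against 0.0916% of the 27305 genes with a window (25 genes, these 5 among them). ERSE-II was found in 2 of the 10, against 0.0696% (19 genes, these 2 among them). The motifs were searched because several of the 10 genes were known to carry them, so nothing is read from these shares. The matched elements follow, read along the motif, with its fixed letters in capitals.
HSPA5 ERSE at -66: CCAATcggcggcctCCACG
HSP90B1 ERSE at -194: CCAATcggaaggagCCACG
HSP90B1 ERSE at -89: CCAATcgcgccgcaCCACG
CALR ERSE at -225: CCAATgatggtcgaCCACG
PDIA6 ERSE at -86: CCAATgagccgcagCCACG
CRELD2 ERSE at -80: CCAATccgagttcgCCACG
HYOU1 ERSE-II at -185 and again at -79: ATTGGaCCACG
SDF2L1 ERSE-II at -188: ATTGGtCCACG
Each position is that of the element's first base along the gene, counted back from the start, where -1 is the base just before it. DNAJB9, CLGN and PDIA4 had neither form within their windows. UPRE core matches were found in 2.4% of all genes and, among the 10, at -188 of HYOU1, where the match overlaps the first ERSE-II. A CCAAT box was present in 9 of the 10, CLGN being the exception, and in 39.7% of all genes. Such a match describes letters and is not a bound site.

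The 250 bases before the start are given for 4 of the genes, chosen because they carry these elements and differ in how their RNA compared between the groups. They are HSPA5 (chr9:125241344-125241593, minus strand), HSP90B1 (chr12:103930160-103930409, plus strand), HYOU1 (chr11:119057206-119057455, minus strand) and CALR (chr19:12938359-12938608, plus strand), each written 5′ to 3′ along the gene. Capitals mark the fixed letters of ERSE, ERSE-II and the UPRE core.
HSPA5: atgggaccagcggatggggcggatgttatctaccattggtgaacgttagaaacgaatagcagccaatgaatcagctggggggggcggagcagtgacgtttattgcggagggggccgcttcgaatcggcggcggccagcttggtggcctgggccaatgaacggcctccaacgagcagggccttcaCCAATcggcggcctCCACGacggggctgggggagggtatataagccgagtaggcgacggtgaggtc
HSP90B1: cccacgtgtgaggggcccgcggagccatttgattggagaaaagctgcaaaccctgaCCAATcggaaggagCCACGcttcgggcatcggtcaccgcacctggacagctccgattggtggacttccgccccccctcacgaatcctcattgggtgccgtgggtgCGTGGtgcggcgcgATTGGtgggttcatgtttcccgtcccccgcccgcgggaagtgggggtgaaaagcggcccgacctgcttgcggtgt
HYOU1: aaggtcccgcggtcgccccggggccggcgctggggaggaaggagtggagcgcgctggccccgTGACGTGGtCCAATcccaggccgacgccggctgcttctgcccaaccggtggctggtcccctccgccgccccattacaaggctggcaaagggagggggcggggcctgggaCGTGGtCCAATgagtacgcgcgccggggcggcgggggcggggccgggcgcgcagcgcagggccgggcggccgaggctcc
CALR: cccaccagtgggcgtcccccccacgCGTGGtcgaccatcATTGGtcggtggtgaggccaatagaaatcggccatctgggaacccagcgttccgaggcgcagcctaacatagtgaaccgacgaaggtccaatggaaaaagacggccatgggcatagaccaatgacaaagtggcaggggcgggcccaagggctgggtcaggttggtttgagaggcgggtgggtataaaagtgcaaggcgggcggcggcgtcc

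**Figure D1:**
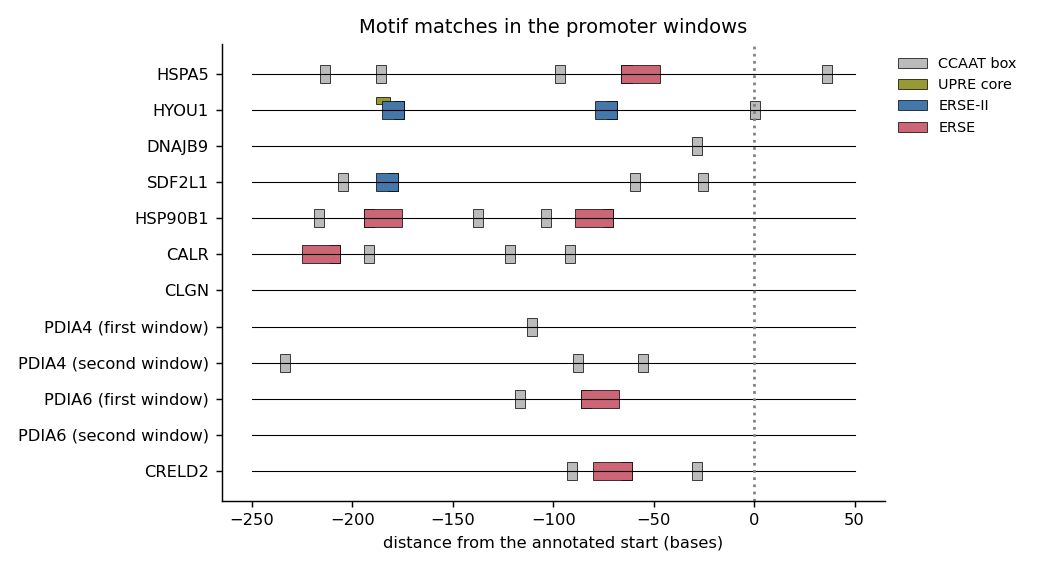
Matches to 4 motifs in the promoter windows of the 10 genes, by distance in bases from the annotated start (horizontal axis), 1 line per window. ERSE lies at -66 in HSPA5 and at -225 in CALR, and the windows of CLGN, DNAJB9 and PDIA4 hold neither ERSE nor ERSE-II.

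As recovered from the deposited FPKM, control 1 to 3 held 544442, 2004255 and 2960454 reads, against 1676755, 1919675 and 1660561 for sh-JMJD1C 1 to 3. Control 1 was the shallowest, with 25% of its reads on the gene ENSG00000281181. There, 3 reads, the limit that a count of 0 allows, were worth 5.51 RPM (reads scaled by the library's own total). In the other libraries they were worth 1.01 to 1.81 RPM. Log2 levels of sh-JMJD1C 1 correlated across genes with those of control 2 at r = 0.895, above the 0.820 to 0.857 between control libraries. JMJD1C stood at 168, 93.1 and 171 scaled RPM for control 1 to 3, against 43.1, 11 and 28.1 for sh-JMJD1C 1 to 3, which matches the labels. The libraries also differed in RNA classes. The nuclear RNA MALAT1 took 1.25% to 2.4% of control reads and 0.0915% to 0.292% of sh-JMJD1C reads. RN7SL genes took 0.378%, 0.59% and 1.77% of control 1 to 3, against 1.18%, 15.7% and 18.5% of sh-JMJD1C 1 to 3. Mitochondrial genes took 7.04%, 8.7% and 2.93%, against 12.6%, 1.33% and 1.7%. By the RN7SL share, sh-JMJD1C 1 lay within the range of the controls and apart from sh-JMJD1C 2 and 3. Of 7 glioma-line markers, VIM, CD44 and EGFR were abundant in all 6 libraries, while S100B was at 0 and SOX2 had 2 reads in total. The remaining markers were also low: NES had 8 control and 27 sh-JMJD1C reads, and GFAP 8 and 7. Defining markers of blood cells, hepatocytes and neurons were at or near 0. Of the epithelial markers, EPCAM had 19 control and 0 sh-JMJD1C reads and CDH1 had 7 and 9, while KRT8 was 263 to 491 scaled RPM for control and 1522 to 4765 for sh-JMJD1C. What part these differences have in the chaperone values was not tested.

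Levels below are scaled RPM: recovered reads per common total, with each library's size set by its median ratio to the others over genes that average 20 or more reads. Means carry the SD over n = 3 libraries. The log2 differences, sh-JMJD1C against control, come from 2 fits over all genes, limma on log2(scaled FPKM + 0.5) and limma-voom on recovered reads, with standard errors (SE). Because the 10 genes were selected on this contrast, their differences are given as a description without a test. In bulk RNA, fewer cells that carry a transcript and less of it per cell cannot be told apart.

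HSPA5 (ENSG00000044574, hg38 chr9:125234853-125241330, minus strand), the central HSP70 of the compartment, stood at 2071, 2019 and 1623 scaled RPM for control 1 to 3, against 725, 343 and 380 for sh-JMJD1C 1 to 3. The groups did not overlap, and sh-JMJD1C 1 lay nearest to the controls. Its mean was 1904 ± 245 for control and 483 ± 211 for sh-JMJD1C, 3.94-fold lower. The log2 difference was -2.11 (SE 0.46) on FPKM and -2.07 (SE 0.41) on reads. These values rest on 12578 control and 2319 sh-JMJD1C reads, so counting error is small beside the spread between libraries. The processed pseudogene HSPA5P1, a near copy elsewhere in the genome, held 154 and 30 reads, and how the counting split reads between the copies is not stated.

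HYOU1 (ENSG00000149428, chr11:119044189-119057202, minus strand), the large HSP70 relative that exchanges nucleotide on HSPA5, stood at 638, 695 and 453 scaled RPM for control 1 to 3, against 260, 206 and 162 for sh-JMJD1C 1 to 3. Each sh-JMJD1C library was below each control library. The means were 595 ± 126 and 209 ± 49, 2.84-fold lower, with log2 differences of -1.49 (SE 0.35) and -1.52 (SE 0.37) on FPKM and reads. An antisense gene that overlaps HYOU1, ENSG00000255114, had 421 control and 110 sh-JMJD1C reads. Whether the counting used strand is not stated, so reads of the overlapping pair cannot be told apart.

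DNAJB9 (ENSG00000128590, chr7:108569568-108574850, plus strand), a J protein that delivers clients to HSPA5 and is known to restrain IRE1, stood at 34.1, 27.2 and 31.5 scaled RPM for control 1 to 3, against 4.54, 2.74 and 4.21 for sh-JMJD1C 1 to 3. The 3 controls were close together and far above all 3 sh-JMJD1C libraries. Its mean of 31 ± 3.47 against 3.83 ± 0.958 was 8.08-fold lower, with log2 differences of -2.59 (SE 0.31) on FPKM and -2.89 (SE 0.57) on reads. Depth was low: 16, 67 and 129 reads for control 1 to 3, against 8, 4 and 6 for sh-JMJD1C 1 to 3. PNPLA8 and THAP5, which overlap DNAJB9 on the opposite strand, had 272 and 213 control reads and 61 and 32 sh-JMJD1C reads.

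SDF2L1 (ENSG00000128228, chr22:21642261-21644298, plus strand), a small partner of J proteins in the HSPA5 cycle, stood at 21.3, 13.8 and 18.3 scaled RPM for control 1 to 3, against 9.08, 72.7 and 37.2 for sh-JMJD1C 1 to 3. The groups overlapped: sh-JMJD1C 1 was below the controls, while sh-JMJD1C 2 and 3 were above them. The means were 17.8 ± 3.78 and 39.7 ± 31.9, and the log2 difference on reads, 0.76 (SE 0.67), was close to its standard error. Without sh-JMJD1C 1 the difference was 1.65, and with the trend over transcript length removed it was -0.09, so neither its size nor its sign held across settings. SDF2L1 had 119 control and 175 sh-JMJD1C reads and the shortest transcript of the 10 genes at 865 bases.

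HSP90B1 (ENSG00000166598, chr12:103930107-103953645, plus strand), the HSP90 of the endoplasmic reticulum, also called GRP94, which folds integrins and Toll-like receptors, stood at 964, 546 and 873 scaled RPM for control 1 to 3, against 154, 91.9 and 199 for sh-JMJD1C 1 to 3. The lowest control was above the highest sh-JMJD1C library by more than the range within the sh-JMJD1C group. Its means were 794 ± 220 and 148 ± 54, 5.35-fold lower, with log2 differences of -2.45 (SE 0.44) on FPKM and -2.46 (SE 0.42) on reads. The pseudogenes HSP90B2P and HSP90B3P held 37 and 12 control and 5 and 2 sh-JMJD1C reads, few beside the 5367 and 689 of HSP90B1.

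**Figure D2:**
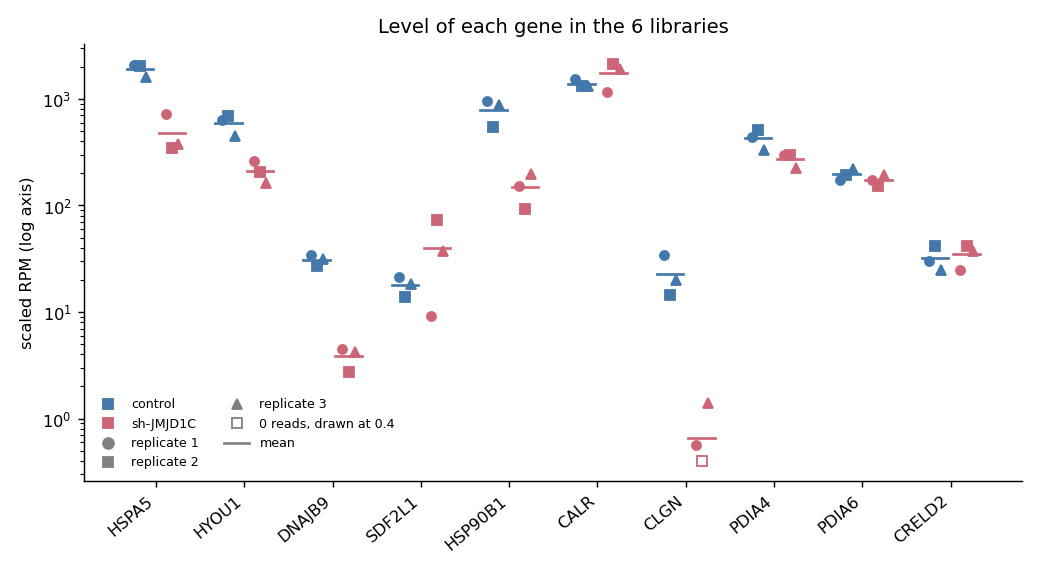
Scaled RPM (vertical log axis) of the 10 genes in 3 control libraries (blue) and 3 sh-JMJD1C libraries (red), with a symbol per replicate number and a line at each mean. HSPA5, HYOU1, DNAJB9, HSP90B1, CLGN and PDIA4 show separate groups, while SDF2L1, CALR, PDIA6 and CRELD2 overlap.

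Among the lectin chaperones, calreticulin and calmegin differed. CALR (ENSG00000179218, chr19:12938578-12944489, plus strand), which binds calcium and monoglucosylated glycoproteins in the lumen, stood at 1531, 1329 and 1318 scaled RPM for control 1 to 3, against 1174, 2136 and 1927 for sh-JMJD1C 1 to 3. The sh-JMJD1C values straddled the controls. The means were 1393 ± 120 and 1746 ± 506, with log2 differences of 0.23 (SE 0.42) on FPKM and 0.28 (SE 0.39) on reads. Its sign depended on the scaling: the difference was -0.07 with reads scaled by library totals, -0.08 with FPKM as deposited, -0.55 and -1.22 with quantile normalization of reads and of FPKM, and -0.28 with the length trend removed. An overlapping antisense gene, ENSG00000267458, had 815 control and 868 sh-JMJD1C reads.

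CLGN (ENSG00000153132, chr4:140388455-140427968, minus strand), a membrane-bound relative of calnexin best known from spermatogenic cells, stood at 34.1, 14.6 and 19.8 scaled RPM for control 1 to 3, against 0.568, 0 and 1.4 for sh-JMJD1C 1 to 3. These came from 16, 36 and 81 reads against 1, 0 and 2. The 0 in sh-JMJD1C 2 allows up to 3 reads, or 1.56 RPM before median-ratio scaling. That is still below the lowest control in the same unit, 18 RPM for control 2. Pooled over libraries, the ratio of control to sh-JMJD1C was 29.3, with an exact 95% interval of 9.82 to 144 that covers counting error only. The log2 difference was -2.70 (SE 0.40) on FPKM and -4.61 (SE 1.05) on reads, a gap set by the added constant at such low counts.

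The disulfide enzymes varied less. PDIA4 (ENSG00000155660, chr7:149003062-149028641, minus strand), an isomerase of the endoplasmic reticulum also called ERp72, stood at 444, 507 and 334 scaled RPM for control 1 to 3, against 297, 300 and 226 for sh-JMJD1C 1 to 3. The groups did not overlap, although control 3 and sh-JMJD1C 2 lay close together. Its means of 428 ± 87.2 and 275 ± 42 differed 1.56-fold, with log2 differences of -0.68 (SE 0.37) and -0.64 (SE 0.36) on FPKM and reads.

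PDIA6 (ENSG00000143870, chr2:10783391-10837977, minus strand), an isomerase that associates with HSPA5, stood at 175, 195 and 222 scaled RPM for control 1 to 3, against 174, 154 and 195 for sh-JMJD1C 1 to 3. The ranges overlapped, and the log2 difference was -0.18 (SE 0.34) on reads. CRELD2 (ENSG00000184164, chr22:49918167-49927540, plus strand), a cysteine-rich secretory protein reported to have isomerase activity, stood at 29.9, 41.5 and 24.9 scaled RPM for control 1 to 3, against 25, 41.8 and 37.2 for sh-JMJD1C 1 to 3. Its groups overlapped almost fully, with a log2 difference of 0.10 (SE 0.41) on reads, -0.31 with reads scaled by library totals and -0.12 with the length trend removed. ATP6V1C2 overlaps PDIA6 and ALG12 overlaps CRELD2, both on the opposite strand. They had 397 and 109 control reads and 147 and 61 sh-JMJD1C reads.

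**Figure D3:**
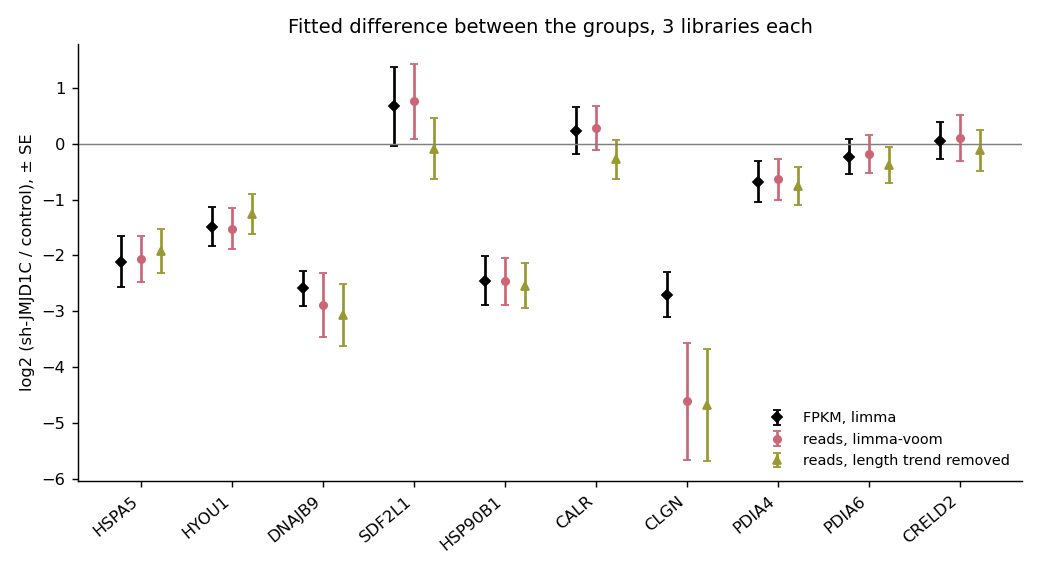
Log2 difference (vertical axis), sh-JMJD1C against control, of each of the 10 genes with its SE, from limma on FPKM (diamonds), limma-voom on reads (circles) and limma-voom after the trend over transcript length was removed (triangles). HSPA5, HYOU1, DNAJB9, HSP90B1 and CLGN lie below -1 under each of these fits, and SDF2L1, CALR and CRELD2 cross 0 when the length trend is removed.

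Counted together, 6 of the 10 genes were lower without overlap of the groups and 0 were higher, where 17.2% and 17.3% of the 11877 genes in the read fit were lower and higher in this way. The limma fit on FPKM called 1 of the 10 lower (DNAJB9) at an adjusted p below 0.05, against 0.125% of 18383 genes, and 0 higher, against 0.0598%. In that limma fit, 5 of the 10 were lower at an unadjusted p below 0.05, where 3658 of the 18383 genes passed that limit in either direction. On reads, limma-voom called 5 lower (HSPA5, HYOU1, DNAJB9, HSP90B1 and CLGN), against 1.81% of 11877 genes, and 0 higher, against 3.71%. That background turned with the scaling: 215 genes were lower and 441 higher with median ratios, 884 and 311 with library totals, and 428 and 548 with quantile normalization. With the length trend removed 4 were called lower, HYOU1 no longer among them, against 1.08%. Since the choice of the genes used this contrast, nothing is read from these counts. Over the 10 genes the median log2 difference was -1.09 on FPKM and -1.08 on reads, beside -0.16 and -0.08 over all genes tested, and it was -1.01 beside -0.02 with the length trend removed. Differences were below 0 in 7 of the 10 under both fits and in 10 of 10 with the length trend removed.

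The calls depended on single libraries. On FPKM, limma no longer called DNAJB9 without control 1, control 2, control 3, sh-JMJD1C 2 or sh-JMJD1C 3, nor with a pseudocount of 1, no filter on low values or quantile normalization. On reads, 5 genes were called lower without sh-JMJD1C 1, with SDF2L1 called higher as well, and 4 without control 2. Over all genes, 644 were lower and 1661 higher of 11474 without sh-JMJD1C 1, and 599 and 588 of 11197 without control 2. Limma-voom called 0 of the 10 without control 1 or sh-JMJD1C 2 and 0 of 9 without control 3, where CLGN had too few reads to enter. All-gene calls in either direction were 39 of 11735 without control 1, 31 of 11451 without sh-JMJD1C 2 and 34 of 10220 without control 3. Limma-voom called 1 of the 10 without sh-JMJD1C 3 (HSP90B1), beside 19 lower and 80 higher of 11470 genes. It called 2 without both libraries numbered 1 (HSPA5 and HSP90B1), beside 112 lower and 836 higher of 11315. Over the omissions of 1 library, HSPA5 ranged from -2.38 to -1.84, HYOU1 from -1.80 to -1.34, DNAJB9 from -3.01 to -2.66 and HSP90B1 from -2.72 to -2.12 in log2 difference on reads. CLGN ranged from -5.14 to -3.94 over the 5 omissions it could be fitted in, the latter without sh-JMJD1C 2. JMJD1C itself was not called on FPKM (log2 difference -1.82, limma adjusted p = 0.118). On reads it was called lower (-2.49, limma-voom adjusted p = 0.0253), as in 2 of 6 omissions of 1 library. With the length trend removed its difference was -1.75 (limma-voom adjusted p = 0.0463).

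The make-up of the chaperone RNA differed as well. Reads of the 10 genes together took 0.512%, 0.661% and 0.68% of control 1 to 3, against 0.297%, 0.254% and 0.272% of sh-JMJD1C 1 to 3. Among them HSPA5 held the largest share in each control, with 34.9%, 37.5% and 33%, against 25.7%, 10.3% and 12% for sh-JMJD1C 1 to 3. CALR held 25.8%, 24.7% and 26.8% in the controls and was the largest in each sh-JMJD1C library, with 41.6%, 63.8% and 60.8%. This share does not depend on library scaling. The ratio of HSPA5 to CALR reads was 1.35, 1.52 and 1.23 for control 1 to 3, against 0.618, 0.161 and 0.197 for sh-JMJD1C 1 to 3, so the order of the pair turned in each sh-JMJD1C library. Likewise the ratio of HSP90B1 to CALR was 0.63, 0.411 and 0.663 against 0.131, 0.043 and 0.103. A ratio within a library shows unequal change and not which gene moved.

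**Figure D4:**
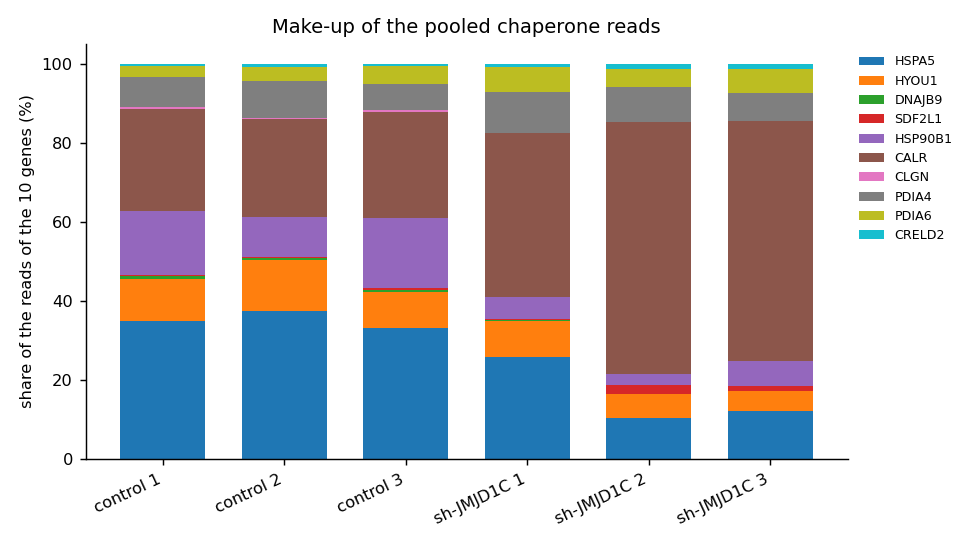
Share (percent, vertical axis) of each gene in the pooled reads of the 10 genes, 1 stacked bar per library. CALR (brown) takes 24.7% to 26.8% in the controls and 41.6% to 63.8% in the sh-JMJD1C libraries, while HSPA5 (blue) and HSP90B1 (purple) take smaller shares there.

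Per kilobase of the longest annotated transcript, the control order was CALR at 732 scaled RPM per kilobase (range 692 to 805), HSPA5 at 487 (415 to 530), HSP90B1 at 262 (180 to 318), PDIA4 at 147 (115 to 175) and HYOU1 at 131 (100 to 153). PDIA6 followed with 73.5 (65.2 to 82.8), then SDF2L1 with 20.6 (16 to 24.7), CRELD2 with 12.2 (9.51 to 15.8), DNAJB9 with 11.4 (10 to 12.6) and CLGN with 7.51 (4.81 to 11.2). Among neighbours in this order, the ranges overlapped for PDIA4 and HYOU1, for CRELD2 and DNAJB9 and for DNAJB9 and CLGN. In the sh-JMJD1C libraries CALR remained first with 917 (617 to 1122), followed by HSPA5 with 124 (87.9 to 186) and PDIA4 with 94.6 (77.9 to 103), whose ranges overlapped. HSP90B1 had 48.9 (30.3 to 65.8), below PDIA6 with 64.9 (57.3 to 72.5), though these ranges overlapped. HYOU1 had 46.2 (35.8 to 57.4), SDF2L1 45.8 (10.5 to 84) and CRELD2 13.2 (9.53 to 15.9). DNAJB9 and CLGN were last with 1.41 (1.01 to 1.67) and 0.216 (0 to 0.462).

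Other genes of the compartment were described through lists chosen with earlier results of these data known. Over all 11877 genes of the read fit, 1.81% were called lower and 3.71% higher. Of 16 measured other chaperones and co-chaperones, limma-voom on reads called 3 lower and 0 higher, 13 did not pass, and the median log2 difference was -0.76. Those called were DNAJB11, a J protein of HSPA5 (48.3 ± 13.5 to 11.8 ± 5.79 scaled RPM, log2 -2.04, limma-voom adjusted p = 0.0411), DNAJC3, a J protein that also inhibits PERK (110 ± 40.3 to 32.1 ± 11.7, adjusted p = 0.0422), and SEC63, the J protein of the translocon (116 ± 41 to 24.2 ± 16.4, adjusted p = 0.0335). All 3 work with HSPA5, as do other genes of this list that did not pass. All 3 calls were lost without control 1, control 3 or sh-JMJD1C 2 and those of DNAJB11 and DNAJC3 without sh-JMJD1C 3, and the highest adjusted p over such omissions was 0.189, 0.185 and 0.147. CANX, the membrane-bound sister of CALR, was 1668 ± 370 and 668 ± 264 scaled RPM without overlap but did not pass (limma-voom adjusted p = 0.0648), and SERPINH1, the collagen chaperone, was 89.9 ± 35.8 and 157 ± 46.6.

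Of 23 genes for sensors and transcription factors of the unfolded protein response and for misfolded protein degradation, limma-voom called 3 lower and 0 higher. Their median log2 difference was -0.92 beside -0.08 over all genes, with 20 of the 23 below 0. With the length trend removed the median was -0.58 beside -0.02. SEL1L, scaffold of the HRD1 ubiquitin ligase, fell from 145 ± 33.4 to 26.8 ± 12.3 scaled RPM (limma-voom adjusted p = 0.018). HERPUD1, a stress-induced part of the same ligase, fell from 140 ± 7 to 37.4 ± 5.1 (limma-voom adjusted p = 0.0197). UBE2J1, a ubiquitin-conjugating enzyme of that pathway, fell from 38.7 ± 7.56 to 11.9 ± 3.3 (limma-voom adjusted p = 0.0469). ATF4, the transcription factor downstream of PERK, was 244 ± 28.4 and 231 ± 109, and OS9, a lectin of degradation, was 187 ± 41.7 and 159 ± 5.67, and neither passed. None of the 3 calls held without control 1, control 3 or sh-JMJD1C 2, SEL1L alone held without sh-JMJD1C 3, and the highest adjusted p over such omissions was 0.0888, 0.0937 and 0.195 for SEL1L, HERPUD1 and UBE2J1.

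Of 20 measured other disulfide isomerases and oxidases, limma-voom called 0, with 2 lower and 2 higher at an unadjusted p below 0.05 and a median log2 difference of -0.19. Over all 11877 genes of this limma-voom fit, 3657 had an unadjusted p below 0.05 in either direction. That is the background for these unadjusted counts and those of the lists below. P4HB, the most abundant isomerase, was 871 ± 264 and 858 ± 157 scaled RPM, and PDIA3, which works with CALR and CANX, was 386 ± 96.4 and 223 ± 55.5. Limma-voom also called 0 of 7 prolyl isomerases (median 0.17, 1 lower and 2 higher unadjusted), 0 of 14 genes of N-glycan processing (median 0.07, 1 lower and 3 higher) and 0 of 15 genes of the translocon and signal peptidase (median -0.23, 4 lower and 1 higher). The cyclophilin PPIB was 244 ± 31.7 and 856 ± 452, and FKBP10, a prolyl isomerase of collagen, 104 ± 37.6 and 210 ± 44. In N-glycan processing, GANAB, the catalytic subunit of a glucosidase, was 400 ± 45.8 and 402 ± 96.3 and RPN1, of the oligosaccharyltransferase, 324 ± 41 and 540 ± 43.2. The translocon channel SEC61A1 was 423 ± 60.9 and 361 ± 46.4, and SSR2, of the translocon-associated complex, was 125 ± 16.3 and 384 ± 184.

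Outside the compartment, limma-voom called 0 of 24 HSP70, HSP90 and J proteins of the cytosol, nucleus and mitochondria (2 lower and 4 higher unadjusted), with a median log2 difference of 0.38. The constitutive HSP70 of the cytosol, HSPA8, was 2006 ± 102 and 2784 ± 252 scaled RPM, and the cytosolic HSP90AB1 was 802 ± 96.3 and 1516 ± 90.5. Of 28 secreted and membrane proteins with no folding role, 1 fell, the laminin chain LAMB1 (269 ± 17.3 to 89.7 ± 36.4, limma-voom adjusted p = 0.0359), and 2 rose, among them the tetraspanin CD63 (131 ± 57.3 to 832 ± 524, limma-voom adjusted p = 0.0411). The calls of LAMB1 and CD63 were lost with the length trend removed, and also without control 1, control 3, sh-JMJD1C 2 or sh-JMJD1C 3, where the highest limma-voom adjusted p was 0.148 and 0.18. In that list EGFR was 1136 ± 37.2 and 440 ± 272 and PSAP, the saposin precursor, 681 ± 49.3 and 616 ± 243, neither passing. Of 6 measured long non-coding RNAs, MALAT1 (15891 ± 5121 to 2045 ± 792, limma-voom adjusted p = 0.0109) and NEAT1 (1536 ± 445 to 383 ± 7.36, limma-voom adjusted p = 0.0212) fell, beside the chaperones that were lower. What MALAT1 and NEAT1, both nuclear, have to do with the chaperone values was not tested.

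The limma fit on FPKM called 0 genes of any of these lists. At an unadjusted p below 0.05, 6 of 16 other chaperones and 7 of 23 sensor and degradation genes were lower and 0 higher. Of 5 long non-coding RNAs in that fit, 3 were lower and 0 higher. Counts were 1 lower and 2 higher of 20 disulfide enzymes, and 1 and 2 of 7 prolyl isomerases. N-glycan processing had 1 and 1 of 14, and the translocon list 3 and 1 of 15. Chaperones outside the compartment had 2 and 4 of 25, and secreted and membrane proteins 4 and 3 of 27. Over all 18383 genes of that limma fit, 3658 passed this limit in either direction. On reads, the 7 lower and 2 higher calls of the lists of the endoplasmic reticulum, the other heat shock proteins and the secreted proteins became 0 without control 1, control 3 or sh-JMJD1C 2. All-gene calls there were 39, 34 and 31 in either direction. Of 145 list genes tested, 2 were lower and 0 higher without sh-JMJD1C 3, and 15 and 3 without control 2. Without sh-JMJD1C 1 they were 16 and 15 of 145, and without both libraries numbered 1 they were 5 and 6 of 145. Over all genes, lower and higher calls were 19 and 80 of 11470 without sh-JMJD1C 3, and 599 and 588 of 11197 without control 2. They were 644 and 1661 of 11474 without sh-JMJD1C 1, and 112 and 836 of 11315 without both libraries numbered 1. MALAT1 and NEAT1 were also not called by limma-voom without control 1, control 3 or sh-JMJD1C 2, and NEAT1 was not without sh-JMJD1C 3. With the length trend removed, 1 other chaperone, the secreted MANF, and 2 genes for sensors and degradation, SEL1L and HERPUD1, were called lower, and of the long non-coding RNAs MALAT1 alone. List medians moved too, to -1.05 for the other chaperones, -0.58 for sensors and degradation and -0.18 for disulfide enzymes. They became -0.51 for prolyl isomerases, 0.09 for N-glycan processing and -0.32 for the translocon list. Chaperones outside the compartment had 0.13 and the secreted and membrane proteins 0.03.

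**Figure D5:**
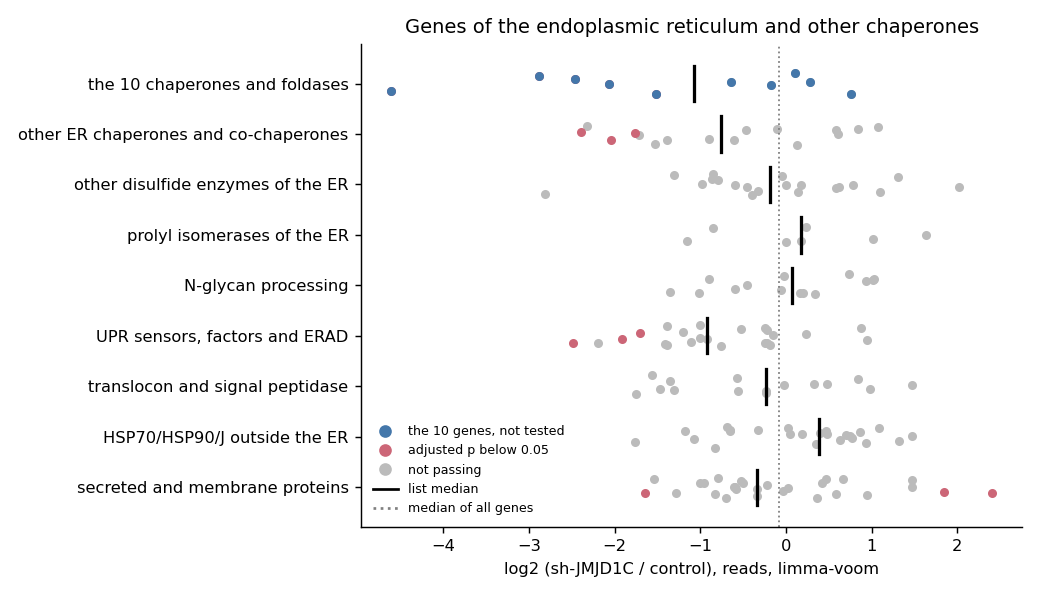
Log2 difference (horizontal axis), sh-JMJD1C against control, from limma-voom on reads, 1 point per gene in 9 groups of genes, with the median of each as a bar and that of all genes as a dotted line. The 10 chaperones and foldases have a median of -1.08 and genes for sensors and degradation -0.92, against 0.38 for chaperones outside the compartment. With the length trend removed, not drawn, these medians are -1.01, -0.58 and 0.13.

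By correlation of log2(scaled RPM + 1) with the mean of the 10 genes over the 6 libraries, the 8 most similar of 11867 other genes were DNAH5 (r = 0.997), RNF6 (0.994), DNAH1 (0.994), CXCL2 (0.993), AP3M2, UBE2G2, MZF1 and SLC20A2 (0.992 each). The points share their libraries and fall in 2 groups, so the coefficients describe these libraries only. UBE2G2, a ubiquitin-conjugating enzyme of the degradation pathway of the endoplasmic reticulum, was the most abundant of them with 107 ± 13.6 and 46.2 ± 3.15 scaled RPM. DNAH5, an axonemal dynein chain, was 14.8 ± 2 and 4.57 ± 0.912 from 118 reads in all.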

How the data were processed

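The labels' protocols name TRIzol for the RNA and a VAHTS Universal V6 kit for the libraries. The authors deposited FPKM (fragments scaled to gene length and library total) for 58174 genes per library, on rising shares of its reads, and the full-library column was used. Per the submitters' processing notes, Bowtie 0.12.2 and hg38 were used, with no role named. The counting tool, like its strand setting, is not given in the sources used here.

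Whole reads were recovered from the FPKM of low genes: below 1000 reads, 100.0% of values lay within 0.05 of a whole read. For 93.9% of 29280 detected genes, among them all 10 described here, the length divided by was the sum of all GENCODE 29 transcript lengths of the gene. No molecular identifiers are described, so intervals (exact, Clopper-Pearson, 95%) and floors cover counting error only.

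Genes averaging 0.5 FPKM or more were fitted with limma 3.58.1 (R 4.3.3, trend option) on log2(scaled FPKM + 0.5), which understates the change of low genes. Genes with 60 or more reads in all were fitted with limma-voom. Scaling used median ratios. Tests were two-sided with Benjamini-Hochberg adjustment at 0.05. The length trend was a lowess curve (span 0.3) over the longest transcript. Both fits and the recovery were tested on simulated data. Members, lists, fits and rules were chosen with earlier results of these data known, and the promoter motifs and the genes that carry them after these values were seen. Named genes are the 10 members, JMJD1C, of each list the genes that passed and the 2 with the most reads, and the 8 most similar genes. Of the genes that passed, 1 is not reported here. Alternatives covered the pseudocount, filters, scaling, length, sample weights, a replicate block and omitted libraries.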

Additional observations from a re-analysis of the deposited data

How the results depend on the processing

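The fit on FPKM called 34 genes, and it called 84 with a pseudocount of 0.1, 0 with a pseudocount of 1, 0 without a filter, 79 on FPKM as deposited, 2 after quantile normalization and 0 without both libraries numbered 1, where 3658 genes had an unadjusted p below 0.05 in the limma fit as reported. Recovered reads gave 656 with limma-voom. That count became 1195 with scaling by library totals, 406 with the length trend removed and 2543 with sample weights. Omitting 1 library at a time gave 0 to 692 genes on FPKM and 31 to 2305 on reads. The median log2 difference of the 10 genes, -1.09, was -1.38 on FPKM as deposited and -1.76 after quantile normalization. On reads it was -1.43 with library totals, -1.62 after quantile normalization and -0.65 for the 9 genes with at least 200 reads, CLGN left out. Omitting 1 library at a time gave -1.28 to -0.91 on FPKM and -1.17 to -0.90 on reads, the last for 9 genes without control 3. Scaling by library totals moved the median of all genes by -0.43 and FPKM as deposited by -0.23. Across the other lists, 0 genes on FPKM became 9 on reads, and 0 to 9 on FPKM when 1 library was omitted. The cause of these shifts was not tested. HSPA5, HYOU1, DNAJB9, HSP90B1, CLGN, PDIA4 and PDIA6 were below 0 in every setting that could be fitted, on FPKM and on reads.

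Samples with the same replicate number had deviations from their group means that correlated at 0.07, 0.40 and 0.48 for numbers 1 to 3. Unlike numbers correlated at -0.55 to 0.13, so the like pairs numbered 2 and 3 stood highest. The labels state no pairing and the main fits used none, and whether the samples are paired was not settled. With the replicate block, 0 genes were called on FPKM and 4260 on reads, and of the 10 genes 5 were called lower and SDF2L1 higher (log2 difference 1.33) on reads and 0 on FPKM. The precision is limited by depth for DNAJB9, CLGN, SDF2L1 and CRELD2: on 0.5 of the reads, nonzero values from fewer than 200 reads moved by -60% to 100%, and values from at least 200 reads by -14.4% to 10%.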

Other observations

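ERSE or ERSE-II also stood in the promoter windows of 37 genes outside the 10, of which 21 were in the read fit, and this set was looked at after the matches of the 10 were seen. Limma-voom called 2 of the 21 lower and 1 higher, against 1.81% and 3.71% of all 11877 genes. Their median log2 difference was -0.01 beside -0.08 over all genes. The genes called lower were HERPUD1 and EIF2A, a translation initiation factor (164 ± 58 to 50 ± 15.6 scaled RPM, limma-voom adjusted p = 0.0456). The gene called higher was RUVBL2, an ATPase of chromatin complexes (47 ± 20.3 to 263 ± 135, limma-voom adjusted p = 0.0226). Among genes named here after their values were seen, XBP1, itself a transcription factor of the response, was 81.5 ± 35.3 and 74.2 ± 18.1 scaled RPM, and FICD, which modifies HSPA5, was 22.8 ± 9.9 and 6.87 ± 2.69 without passing (limma-voom adjusted p = 0.0983). ALG12 carries the ERSE that also lies in the CRELD2 window and was 14.1 ± 5.93 and 13.2 ± 3.99. Of the 5 ERSE-bearing genes among the 10, HSPA5 and HSP90B1 were lower without overlap of the groups, and CALR, PDIA6 and CRELD2 overlapped. Of 9 other ERSE-bearing genes in the read fit, 3 were lower without overlap, CANX among them, and 1 was higher. Over all 11877 genes these shares were 17.2% and 17.3%.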
